A study of Mus musculus with 6 samples.

Results

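Integrins and laminins are the receptors and ligands by which cells hold on to a basement membrane. The 37 genes described here are the protein-coding mouse genes of the integrin alpha subunits (18 genes), the integrin beta subunits 1 to 8 (8 genes) and the laminin alpha, beta and gamma chains (11 genes). They were chosen by gene symbol from 21967 protein-coding genes in the count files. The RNA came from ciCPCs, labelled as cardiac progenitors, that is, progenitors made from mouse fibroblasts with chemicals; picked colonies of reprogramming cultures had been grown on for passages. The cells of both passages were wild type, had a strain background of C57BL/6 mixed with 129J/SvE, and were kept in basal medium with BMP4, Activin A, CHIR99021 (an inhibitor of glycogen synthase kinase) and SU5402 (an inhibitor of FGF receptors). The groups were passage 3 and passage 20, with 3 libraries each, so the question was how an early and a late passage differed. The labels do not say that replicates were separate cultures, or that both passages came from the same colonies. P-values here thus rest on a spread between libraries that may be purely technical, and passage cannot be told apart from culture or harvest.

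An integrin is a pair of 1 alpha and 1 beta subunit that spans the cell membrane, binds matrix or another cell outside, and is linked to actin inside by talin and kindlin. The pair sets the ligand: some pairs read laminins, some collagens, some the Arg-Gly-Asp (RGD) motif of fibronectin and vitronectin, and some serve leukocytes. A laminin is a trimer of 1 alpha, 1 beta and 1 gamma chain. Many, though not all, are cross-shaped and polymerise on the cell surface, which starts a basement membrane. The laminin alpha1 chain is typical of the early embryo, while alpha4 and alpha5 are the main chains of vessels and many later epithelia.

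The count files held 11387738 to 17721788 counts per library. Levels are CPM, that is counts relative to library size, after TMM scaling, which corrects library sizes for composition, and log2 fold changes compare passage 20 with passage 3 (edgeR's quasi-likelihood test, adjusted p under 0.05 over 15143 genes). With library sizes only, the median of log2 fold changes over all genes was -0.34 in place of -0.01, and changes are given relative to the TMM scale. Passage 20 replicate 3 stood apart: the chi-square of counts per degree of freedom was 10.6 and 8.72 against the other passage 20 libraries and 1.75 to 2.63 in the other pairs of 1 passage. All 8 fixed markers of cardiovascular progenitors were detected, 4 higher and 4 lower at passage 20. Among all genes tested, 37% were higher and 37.3% lower. The summed level of the 8 markers was 763 to 787 CPM at passage 3 and 642.0 to 710 CPM at passage 20. That sum hides opposite moves: Isl1 fell 8.44-fold and Pdgfra 2.446-fold, while Nkx2-5 rose 4.57-fold and Mef2c 2.675-fold. In bulk RNA, fewer cells of a type and less RNA per cell cannot be told apart.

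The laminin and integrin genes moved in both directions, with laminin alpha chains and RGD-binding beta subunits splitting within their own class. Of the 37 genes, 31 passed the filter on low counts. Of these, 20 were higher at passage 20, where 37% of all genes tested were higher, and 9 were lower, where 37.3% were. Together 93.5% of the tested integrin and laminin genes were called, against 74.3% of all genes, and 11 of 31 were called with at least a 2-fold change, against 27.6% of all genes. Among those 11, Itgae, Itga2 and Lamb3 passed the filter only through the passage in which they were higher. The median log2 fold change was 0.48, against -0.01 for all genes tested. The members were chosen with earlier results of these data known. The 3 libraries of one passage did not overlap those of the other in 30 of the 31, against 77.5% of all genes. Without passage 20 replicate 3, 19 were higher and 9 lower, and with library sizes only 13 were higher and 10 lower, where 23.3% of all genes were higher and 54.6% lower.

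**Figure D1:**
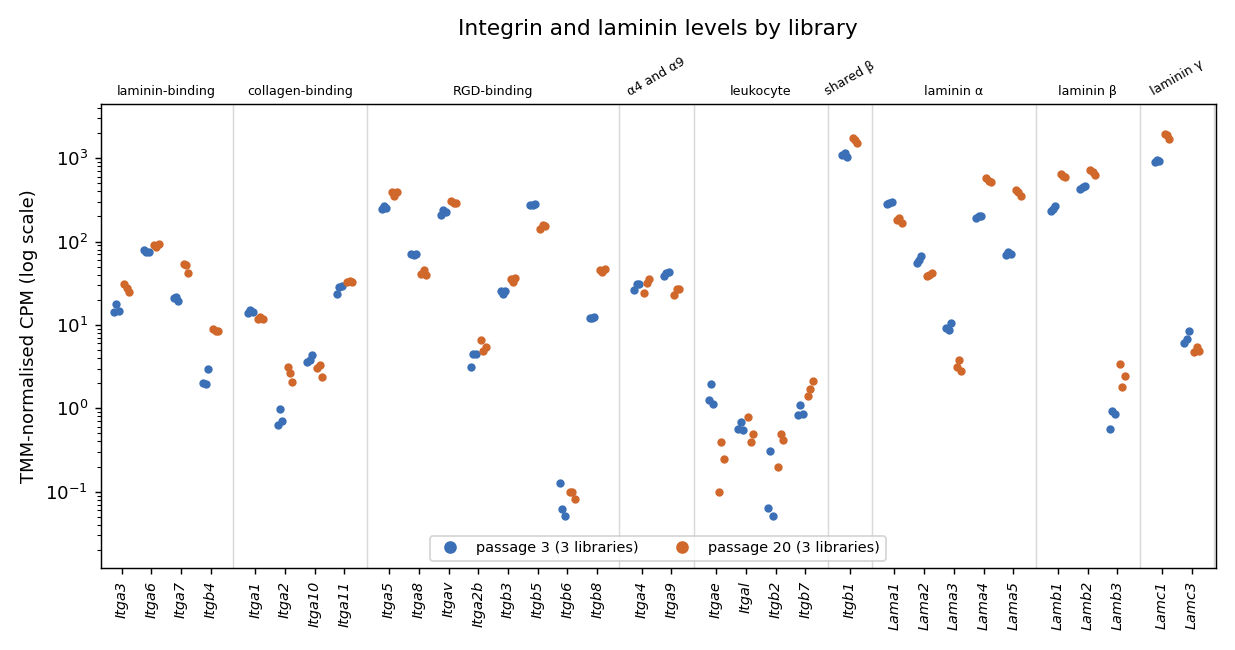
TMM-normalised CPM on a log axis of 33 integrin and laminin genes with a count, by ligand class, with 1 point per library (blue, passage 3; orange, passage 20). Itgb1 and Lamc1 lie highest in all 6 libraries, and the orange points of Lama4 and Lama5 lie above the blue ones while those of Lama1, Lama2 and Lama3 lie below; libraries at 0 cannot be drawn.

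The laminin alpha chains changed in opposite directions. Lama5 (ENSMUSG00000015647, chromosome 2, 180176373 to 180225859, GRCm38), the alpha chain of laminin-511 and a strong ligand of integrin alpha6 beta1, stood at 68.5, 74.2 and 70.4 CPM in the passage 3 libraries and at 415, 396 and 349.5 CPM in those of passage 20. The passage 20 libraries all lay far above those of passage 3. The mean went from 71.0 ± 2.92 to 387 ± 33.8 CPM (SD, n = 3 per passage), 5.44-fold higher (log2 2.44, SE 0.07, edgeR adjusted p = 4.59e-10). Lama4 (ENSMUSG00000019846, chromosome 10, 38965515 to 39110188), the alpha chain of laminin-411 in vessel walls, was at 193, 205 and 204 CPM and then at 574, 538 and 518 CPM. It was thus 2.71-fold higher with no overlap (log2 1.44, SE 0.05, edgeR adjusted p = 2.23e-09).

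The other 3 alpha chains fell. Lama1 (ENSMUSG00000032796, chromosome 17, 67697259 to 67822647), the chain of laminin-111 in early embryonic basement membranes, was at 282, 291 and 294.5 CPM at passage 3 and at 182, 192 and 169 CPM at passage 20. It fell 1.60-fold without overlap between the passages (log2 -0.68, SE 0.06, edgeR adjusted p = 9.33e-07). Lama2, the chain of muscle and nerve sheath laminin-211, went from 55.3, 59.8 and 66.5 CPM to 38.4, 40.2 and 41.6 CPM, 1.51-fold lower (edgeR adjusted p = 4.51e-05). Lama3, the chain of laminin-332 under epithelia, went from 9.54 ± 0.914 to 3.25 ± 0.496 CPM, 2.96-fold lower (edgeR adjusted p = 4.47e-06). All 5 alpha chains kept their direction and call without passage 20 replicate 3 and with library sizes only.

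Levels of different genes can be compared only per length, so the composition of the alpha chains was taken from CPM per kilobase of merged exons. On that scale Lama1 held 52.1 ± 0.432% of the summed alpha chain level at passage 3 and 18.6 ± 0.825% at passage 20. Lama4 went from 29.0 ± 0.212% to 44.85 ± 1.03% and Lama5 from 10.9 ± 0.342% to 33.8 ± 0.97%. Lama2 went from 6.46% to 2.45% and Lama3 from 1.55% to 0.3005%. The chain in first place at passage 3 depended on the length used: with the longest annotated transcript Lama4 led there with 43.1% and Lama1 had 39.4%. At passage 20 Lama4 led by both lengths, and by both the share of Lama1 fell and that of Lama5 rose. Splice forms and alternative starts of these genes share 1 count per gene, so the lengths in use are not known.

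**Figure D2:**
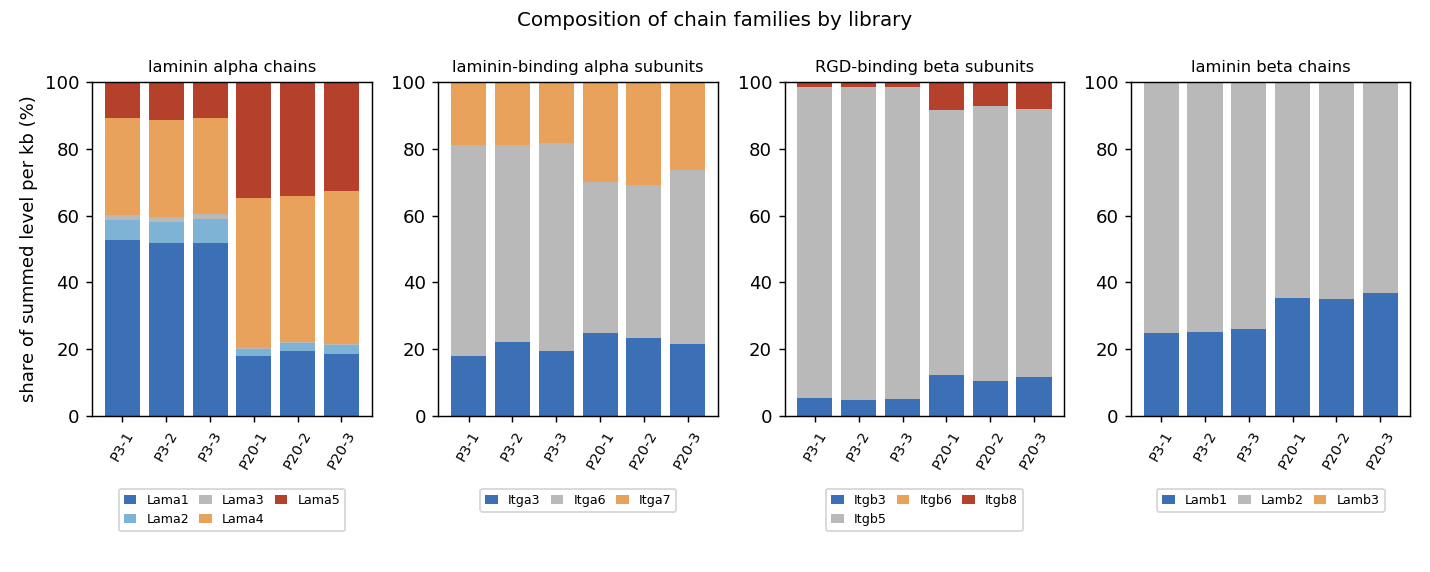
Share in percent of each gene in the summed level per kilobase of merged exons of its family, 1 bar per library (P3, passage 3; P20, passage 20). Within the laminin alpha chains Lama1 takes 51.8% to 52.6% of each passage 3 bar and 17.8% to 19.5% of each passage 20 bar. Within the RGD-binding beta subunits, drawn without Itgb1, Itgb5 takes over 79.6% of each bar.

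Among beta and gamma chains the widely used members rose. Lamc1 (ENSMUSG00000026478, chromosome 1, 153218922 to 153332786), the gamma chain of most laminins, was at 895, 941.5 and 932 CPM and then at 1969, 1886 and 1701 CPM, 2.01-fold higher (edgeR adjusted p = 7.02e-08). Lamb1, the beta chain of laminin-111, laminin-411 and laminin-511, went from 248 ± 17.9 to 615 ± 26.8 CPM, 2.48-fold higher (edgeR adjusted p = 1.08e-08). Lamb2, the beta chain of synaptic and kidney laminins, went from 446 ± 18.1 to 678 ± 50.2 CPM, 1.52-fold higher (edgeR adjusted p = 4.85e-06). In none of these 3 genes did the passages overlap. Per kilobase Lamb2 remained the larger of these beta chains, with 74.5% of the beta chain level at passage 3 and 64.1% at passage 20.

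Lamb3 and Lamc3 were low. Lamb3, a beta chain that joins alpha3 in laminin-332, the epithelial anchoring laminin, was at 0.570, 0.924 and 0.859 CPM and then at 3.37, 1.79 and 2.47 CPM, 3.19-fold higher from 41 counts in all at passage 3 (log2 1.67, SE 0.30, edgeR adjusted p = 0.000424, and log2 0.91 in the deposited log2 values). Lamb3 passed the filter on low counts only through the passage 20 libraries, where it was higher. It moved against Lama3, which fell. Lamc3, a gamma chain of restricted expression, was 1.42-fold lower, from 7.10 ± 1.23 to 5.02 ± 0.318 CPM (edgeR adjusted p = 0.0145, and 0.0729 without passage 3 replicate 3).

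The promoters of 4 members that moved strongly or in opposite directions are shown, to set sequences beside the changes. Windows run from 250 bases before to 50 bases after a RefSeq start (GRCm38.p6), and 23 of the 37 genes had at least 1 window in the RefSeq table. Capitals mark GGGCGG, the GC box read by Sp1-type factors, on either strand (CCGCCC on the printed strand is its complement). Lama5 rose (chr2:180225810-180226109, minus strand), as did Lamb1 (chr12:31265043-31265342, plus strand). Lama2 (chr10:27616893-27617192, minus strand) and Itgb5 (chr16:33829415-33829714, plus strand) fell. The Lama2 window lies inside the gene as annotated in GENCODE M21, which begins at 27619758 on that strand. Which start of Lama2 was in use was not tested.
Lama5: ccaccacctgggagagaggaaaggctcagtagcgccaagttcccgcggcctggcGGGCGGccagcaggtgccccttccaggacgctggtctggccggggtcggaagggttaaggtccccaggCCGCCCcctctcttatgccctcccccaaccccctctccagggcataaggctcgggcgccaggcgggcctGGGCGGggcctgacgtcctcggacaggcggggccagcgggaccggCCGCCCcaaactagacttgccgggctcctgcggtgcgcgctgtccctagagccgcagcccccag
Lamb1: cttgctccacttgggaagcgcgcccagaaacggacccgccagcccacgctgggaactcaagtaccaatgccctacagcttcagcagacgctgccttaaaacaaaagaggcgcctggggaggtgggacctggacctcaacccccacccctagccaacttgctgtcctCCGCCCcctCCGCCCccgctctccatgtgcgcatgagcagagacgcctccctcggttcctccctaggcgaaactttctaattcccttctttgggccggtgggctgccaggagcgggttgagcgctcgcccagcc
Lama2: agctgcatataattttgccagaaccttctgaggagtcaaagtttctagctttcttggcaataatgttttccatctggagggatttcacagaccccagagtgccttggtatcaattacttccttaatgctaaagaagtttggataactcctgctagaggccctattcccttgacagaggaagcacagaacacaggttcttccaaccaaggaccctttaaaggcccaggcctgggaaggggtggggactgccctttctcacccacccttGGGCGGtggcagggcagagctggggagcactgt
Itgb5: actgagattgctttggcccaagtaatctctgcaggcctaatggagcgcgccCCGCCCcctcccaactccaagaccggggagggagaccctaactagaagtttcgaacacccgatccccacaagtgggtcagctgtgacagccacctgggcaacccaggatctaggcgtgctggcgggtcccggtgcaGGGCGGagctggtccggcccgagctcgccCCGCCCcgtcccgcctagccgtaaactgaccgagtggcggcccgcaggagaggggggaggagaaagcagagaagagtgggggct
Lama5 held 4 GC boxes in a window of 72.7% G and C, and Lamb1 held 2 boxes at 63.7%. Itgb5, which fell, held 3 boxes at 65.7%, and Lama2 held 1 at 50.3%, while the median over all windows was 52.7%. A GC box was present in 12 of 26 windows of integrin and laminin genes and in 35.7% of 32851 windows of all genes. The sequence CCAAT, searched on both strands, was in 4 of the 26 and in 37.4% of all, and TATAAA was in 0 of the 26 and in 13.6% of all. These are matches of letters in these windows, and binding was not measured.

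The integrin subunits that pair into laminin receptors were all higher. Itga7, the muscle laminin receptor subunit, was at 21.2, 21.7 and 19.4 CPM and then at 53.3, 52.4 and 42.3 CPM, 2.37-fold higher with no overlap (log2 1.25, SE 0.10, edgeR adjusted p = 6.3e-07). Itga3, a receptor subunit for laminin-332 and laminin-511, went from 14.2, 17.8 and 14.6 CPM to 31.3, 27.9 and 24.7 CPM, 1.80-fold higher (edgeR adjusted p = 5.4e-05). Itga6, the subunit shared by alpha6 beta1 and alpha6 beta4, went from 76.8 ± 2.81 to 90.3 ± 3.59 CPM, only 1.18-fold higher (edgeR adjusted p = 0.00374), and its log2 change turned from 0.235 to -0.0954 with library sizes only (adjusted p = 0.20). Per kilobase, Itga6 made up 61.7 ± 2.28% of these 3 subunits at passage 3 and 47.8 ± 3.82% at passage 20, and Itga7 went from 18.6 ± 0.41% to 28.97 ± 2.45%.

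Itgb4 (ENSMUSG00000020758, chromosome 11, 115974709 to 116008412) encodes the beta subunit that joins alpha6 in hemidesmosomes, the anchors of epithelial cells on laminin. It was at 2.03, 1.97 and 2.93 CPM at passage 3 and at 9.01, 8.35 and 8.47 CPM at passage 20. The libraries did not overlap, and the level was 3.67-fold higher (log2 1.87, SE 0.17, edgeR adjusted p = 2.37e-06), although per kilobase it was at 1.23 CPM at passage 20, beside 10.0 CPM for Itga6. Of 6 fixed hemidesmosome partners, 5 were tested: 1 was higher, 3 were lower and 1 did not pass, so 80% were called, near the 74.3% of all genes. The keratin gene Krt14 was lower, at 18.0 ± 0.227 and then 1.05 ± 0.873 CPM (log2 -4.01, and -5.04 without passage 20 replicate 3). Krt14 passed the filter on low counts only through the passage 3 libraries, where it was higher. The plectin gene Plec fell 1.26-fold, and the dystonin gene Dst rose 1.26-fold (largest edgeR adjusted p of Krt14, Plec and Dst = 0.00375). With library sizes only, 4 partners were lower, and Dst did not pass (log2 0.0017, adjusted p = 0.981). Of 8 fixed epithelial markers, 7 were tested, 6 higher and 1, again Krt14, lower. The summed level of the 8 was 107 to 111 CPM at passage 3 and 181 to 210.1 CPM at passage 20. Of all genes tested, 37% were higher and 37.3% lower. Krt5 had 1 count in 1 library. The part of epithelial cells in the change of Itgb4 was not tested.

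Collagen-binding subunits showed small or low-level changes. Itga11, the subunit of mesenchymal cells that binds fibrillar collagen, went from 27.0 ± 3.35 to 32.7 ± 0.428 CPM (log2 0.27, edgeR adjusted p = 0.0212). That call was lost without passage 3 replicate 1 (adjusted p = 0.0994), without passage 20 replicate 2 (0.0545), with upper-quartile factors (0.0747) and with DESeq2 (0.069), and the direction turned with library sizes only (log2 -0.0557). Itga1 fell 1.20-fold from 14.4 ± 0.59 to 11.99 ± 0.391 CPM (edgeR adjusted p = 0.0262), a call that was lost without passage 3 replicate 2 (0.0784), without passage 20 replicate 1 (0.0559) and with DESeq2 (0.0944). Itga10, a subunit best known from cartilage, was at 3.90 ± 0.443 and 2.91 ± 0.469 CPM and did not pass (edgeR adjusted p = 0.0532). It passed as lower without passage 20 replicate 2 (0.0477), with upper-quartile factors (0.0262), with library sizes only (0.00264) and in limma on the deposited log2 values (0.0391). Its exons share 1739 of 5186 bases with Gm42957 on the same strand, and those of Itga1 share 685 bases with Gm49395, so the counting may have left out reads there.

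Itga2, the subunit of the platelet and epithelial collagen receptor, was at 0.6335, 0.9855 and 0.708 CPM and then at 3.17, 2.685 and 2.055 CPM. Those libraries did not overlap, and the level was 3.35-fold higher from 40 counts in all at passage 3 (edgeR adjusted p = 0.000157). Itga2 passed the filter on low counts only through the passage 20 libraries, where it was higher. In the deposited log2 values its log2 change was 0.97, against 1.74 here.

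The RGD-binding receptors moved apart by beta subunit. Itgb8 (ENSMUSG00000025321, chromosome 12, 119158022 to 119238802) pairs with alphaV in a receptor known for activating latent TGF-beta. It was at 12.04, 12.1 and 12.3 CPM at passage 3 and at 45.1, 42.8 and 46.8 CPM at passage 20, 3.69-fold higher (log2 1.89, SE 0.08, edgeR adjusted p = 4.19e-09). Itgb5 (ENSMUSG00000022817, chromosome 16, 33829665 to 33949338), the beta subunit of the vitronectin receptor alphaV beta5, went from 276, 277 and 285.5 CPM to 141.5, 157 and 153 CPM, 1.86-fold lower (log2 -0.89, SE 0.05, edgeR adjusted p = 6.23e-08). Neither gene overlapped between passages. Itgb3, the beta subunit of alphaV beta3, was 1.42-fold higher, from 24.7 ± 1.28 to 35.05 ± 2.04 CPM (edgeR adjusted p = 0.000145), and did not pass with library sizes only (adjusted p = 0.0759). Itgb6, an epithelial beta subunit, had 4 counts in all at passage 3 and 3 at passage 20 and was not tested.

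Per kilobase, Itgb5 remained the largest of the RGD-binding beta subunits other than Itgb1. Itgb1, also the beta subunit of the fibronectin receptor, is classed here as shared. It was at 269.8 and 398 CPM per kilobase at passage 3 and passage 20, against 78.6 and 42.3 for Itgb5. The share of Itgb5 in Itgb3, Itgb5, Itgb6 and Itgb8 together was 93.7 ± 0.219% at passage 3 and 80.8 ± 1.42% at passage 20. The share of Itgb8 went from 1.31 ± 0.0138% to 7.77 ± 0.49%, and that of Itgb3 from 4.99 ± 0.222% to 11.4 ± 0.932%.

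Of the RGD-binding alpha subunits, 3 were higher and 1 was lower, where 37% of all genes were higher and 37.3% lower. With library sizes only, 1 was higher and 1 lower, where 23.3% and 54.6% of all genes were. Itga5, the fibronectin receptor subunit, was at 243, 267 and 253.5 CPM and then at 393, 356 and 395 CPM, 1.5-fold higher (log2 0.585, SE 0.06, edgeR adjusted p = 3.8e-06). Itgav, the partner of Itgb3, Itgb5 and Itgb8, rose 1.30-fold from 227 ± 16.1 to 295 ± 6.997 CPM (edgeR adjusted p = 0.000115), but its change shrank to 0.05 with library sizes only (adjusted p = 0.41). Itga8 went the other way, from 71.3, 69.05 and 70.97 CPM to 40.6, 46.0 and 39.5 CPM, 1.68-fold lower (edgeR adjusted p = 2.96e-06). Npnt, which encodes its ligand nephronectin, was also lower, from 127 ± 2.38 to 74.2 ± 4.67 CPM (edgeR adjusted p = 4.88e-07). Itga2b, the platelet subunit, was at 4.03 ± 0.751 and 5.67 ± 0.891 CPM (edgeR adjusted p = 0.0339). Its call was lost with library sizes only (adjusted p = 0.459), with upper-quartile factors (0.0643), with DESeq2 (0.122) and without passage 3 replicate 1 (0.138), passage 3 replicate 2 (0.0552) or passage 20 replicate 1 (0.131).

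Itgb1 (ENSMUSG00000025809, chromosome 8, 128685654 to 128733200), the beta subunit shared by the laminin, collagen and fibronectin receptors, had the highest level per kilobase of all 37 genes in both passages, at 269.8 ± 14.1 and 398 ± 27.6 CPM per kilobase. In CPM it was at 1098, 1160 and 1045 and then at 1724, 1645 and 1502, 1.47-fold higher (edgeR adjusted p = 1.05e-05). Among alpha subunits Itga5 was highest per kilobase, at 51.5 ± 2.44 and 77.3 ± 4.44 CPM per kilobase. Itgav followed at 21.1 ± 1.4965 and 27.5 ± 0.651 CPM per kilobase.

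Itga9, a receptor subunit for tenascin and VCAM-1, fell 1.62-fold from 41.4 ± 2.20 to 25.5 ± 2.58 CPM (edgeR adjusted p = 2.58e-05). Itga4, which reads VCAM-1 and fibronectin, was at 26.0, 30.55 and 31.0 CPM and at 23.9, 31.5 and 35.5 CPM. It was the 1 tested gene whose passages overlapped, and it did not pass (log2 0.06, SE 0.13, edgeR adjusted p = 0.717). Of its exon bases, 1124 overlap Cerkl on the opposite strand, which had 12 counts in all libraries. Its sign turned with library sizes only, with upper-quartile factors, without passage 3 replicate 1 and without passage 20 replicate 3.

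The leukocyte integrins were low, and only Itgae and Itgb7 of these 7 genes passed the filter on low counts. Itgae passed it only through the passage 3 libraries, where it was higher. Itgam, Itgax and Itgad had 0 counts in all 6 libraries, which allows up to 0.058 CPM over the passage 3 libraries and 0.093 CPM over those of passage 20 (3 counts per group, counting error only). Itgam shares 3450 of 5024 exon bases with Gm49368 on the same strand, also at 0 counts, so a count of 0 there may not measure its level. Itgal had 31 counts at passage 3 and 18 at passage 20, and Itgb2, the common leukocyte beta subunit, 7 and 12. Itgae, a subunit of intraepithelial lymphocytes that binds E-cadherin, was at 1.27, 1.97 and 1.11 CPM and then at 0.099, 0.398 and 0.247 CPM, 5.63-fold lower with 8 counts in all at passage 20 (edgeR adjusted p = 0.000543, log2 -2.49, and -1.02 in the deposited log2 values). Its partner Itgb7 was at 0.931 ± 0.155 and 1.74 ± 0.378 CPM (edgeR adjusted p = 0.0102), a call lost without passage 20 replicate 3 (0.0553), without passage 3 replicate 3 (0.0524), with library sizes only (0.0721) and with DESeq2 (0.0907). Of 8 fixed leukocyte markers, 3 were tested, 1 higher and 1 lower, where 37% of all genes were higher and 37.3% lower. The summed level of all 8 was 5.955 to 6.82 CPM at passage 3 and 5.94 to 7.16 CPM at passage 20. Ptprc, which encodes CD45, was at 0 counts.

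**Figure D3:**
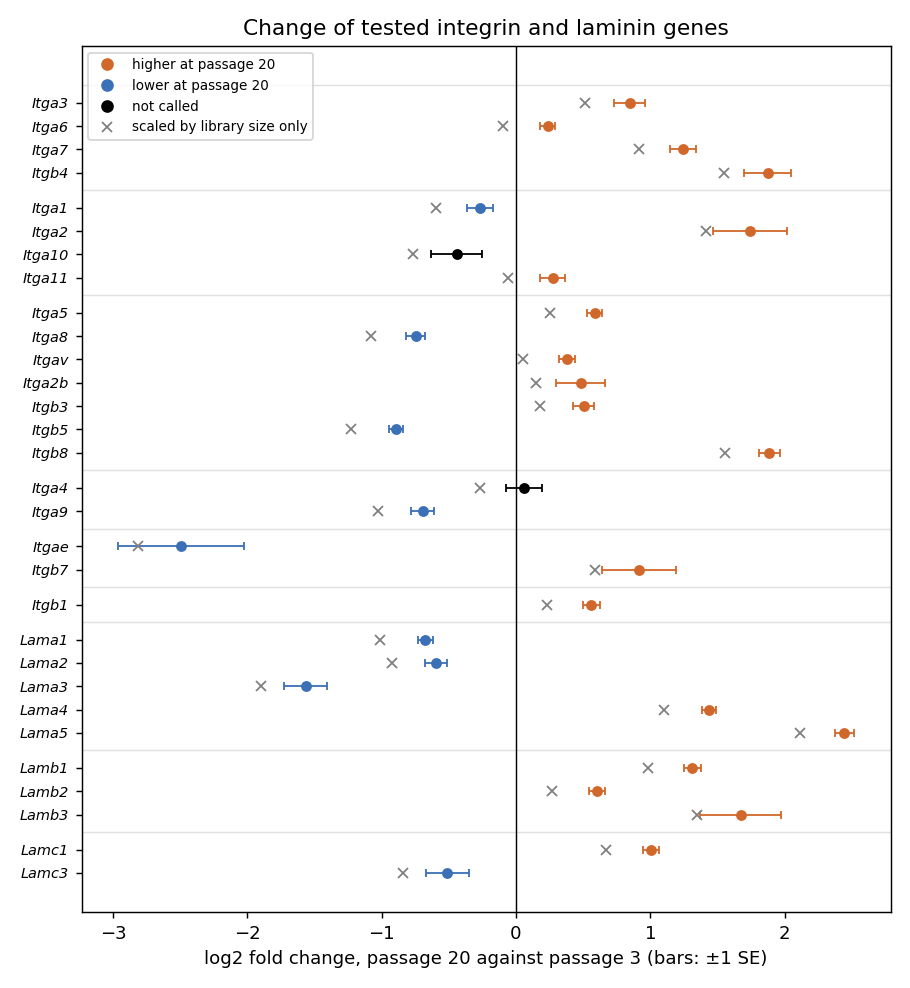
Log2 fold change of passage 20 against passage 3 for 30 of the 31 tested genes by class, with bars of 1 SE from edgeR (orange, higher; blue, lower; black, not called), and grey crosses for the change when libraries are scaled by size only. The crosses lie to the left of the points throughout, and for Itga4, Itga6 and Itga11 they cross 0.

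The genes around laminin in the basement membrane rose with Lama4, Lama5, Lamb1 and Lamc1. Of 10 fixed partners, 9 were higher and 1 was lower, where 37% of all genes were higher and 37.3% lower. The median log2 fold change of the partners was 1.135, against -0.01 for all genes tested. This list was chosen with earlier results of these data known, and the part of that choice in these counts was not tested. Dag1, which encodes dystroglycan, a laminin receptor outside the integrin family, was at 262, 287 and 287 CPM and then at 827, 803 and 815 CPM, 2.92-fold higher (edgeR adjusted p = 1.17e-09). Col4a1, a chain of the type IV collagen network, rose 2.85-fold from 867 ± 41.1 to 2470 ± 246 CPM (edgeR adjusted p = 1.42e-08). Ntn4, a netrin that binds laminin, fell 2.14-fold from 6.84 ± 0.907 to 3.14 ± 1.26 CPM (edgeR adjusted p = 0.00176). With library sizes only, 7 partners were higher and 1 was lower, against 23.3% and 54.6% of all genes.

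Of 18 fixed genes of other integrin ligands, 16 were tested: 13 were higher, 2 lower and 1 did not pass, where 37% of all genes were higher and 37.3% lower. Among the 13, Spp1, with 14 counts in all at passage 3, passed the filter on low counts only through the passage 20 libraries, where it was higher. The median log2 fold change was 0.47, and with library sizes only 8 were higher and 3 lower, where 23.3% and 54.6% of all genes were. This list, too, was chosen with earlier results of these data known. Icam1, a ligand of leukocyte integrins, was at 12.9, 12.8 and 13.3 CPM and then at 87.4, 78.7 and 84.9 CPM, 6.42-fold higher (edgeR adjusted p = 3.58e-10). Fbn1, the RGD protein fibrillin-1, rose 2.005-fold from 308 ± 5.88 to 617 ± 15.7 CPM (edgeR adjusted p = 1.01e-08). The 2 that fell were Npnt and Tgfb3, whose latent form is a ligand of alphaV integrins, from 97.9 ± 2.58 to 56.2 ± 1.30 CPM (edgeR adjusted p = 2.64e-07).

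Of 20 fixed genes that activate integrins or link them to actin, 18 were tested: 7 were higher, 6 lower and 5 did not pass, with a median log2 fold change of -0.06. The share called was 72.2%, near the 74.3% of all genes. Among those called, Lims2 passed the filter on low counts only through the passage 20 libraries, where it was higher. Fermt3 passed it only through those of passage 3, where it was higher. Fermt2, the kindlin of mesenchymal cells, rose 1.99-fold from 175 ± 6.59 to 348 ± 5.68 CPM, and Pxn, the focal adhesion adaptor paxillin, rose 1.36-fold (largest edgeR adjusted p = 1.15e-05, and 0.0538 for Pxn with library sizes only). Tns1, the actin linker tensin 1, fell 2.06-fold from 375 ± 10.5 to 181 ± 17.8 CPM, and Tln2, a talin, fell 1.57-fold (largest edgeR adjusted p = 2.04e-06). The split depended on scaling, with 1 higher and 13 lower by library sizes only (23.3% and 54.6% of all genes), with 3 higher by upper-quartile factors, and with 4 higher without passage 3 replicate 3. The integrin-linked kinase gene Ilk had only 17 counts in all libraries, and 2106 of its exon bases overlap Taf10 on the opposite strand, so its level cannot be read from these counts.

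**Figure D4:**
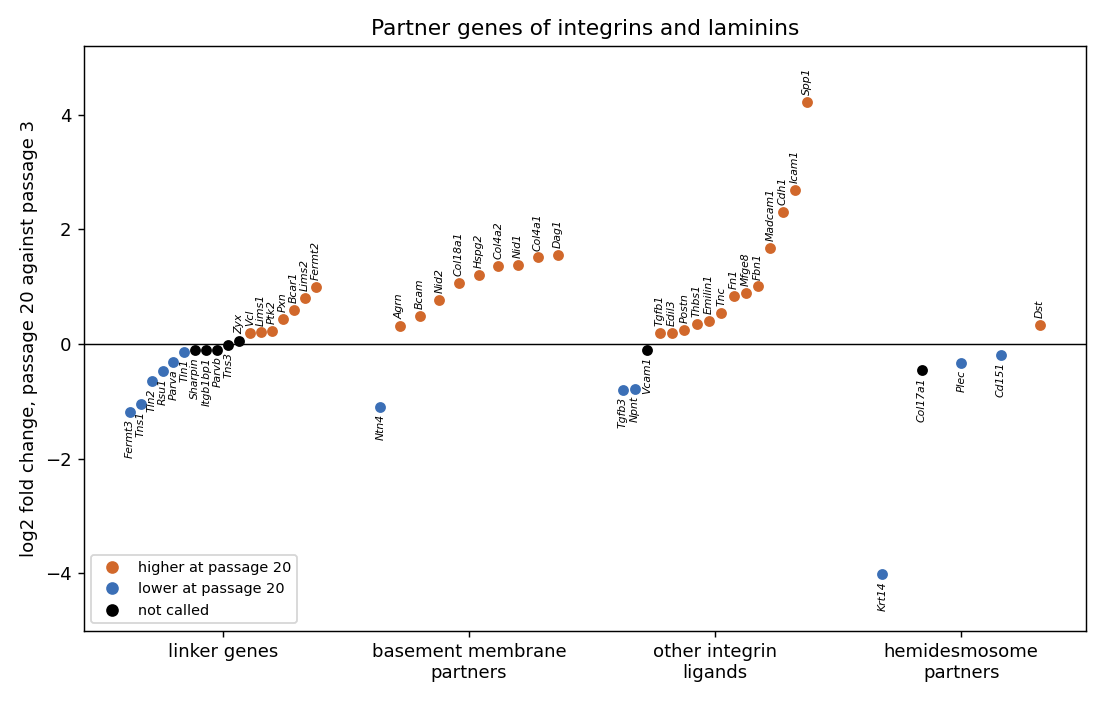
Log2 fold change of passage 20 against passage 3 for each tested gene of the 4 partner lists (orange, higher; blue, lower; black, not called). In the basement membrane list all points but Ntn4 lie above 0, whereas the linker genes lie on both sides of 0.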

How the data were processed

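Per the labels, total RNA was sequenced from passage 3 and passage 20 ciCPCs. Per the submitters' processing notes the tools were HTSeq, SAMtools, HISAT2 2.0.5 and DESeq2, on GRCm38. For the annotation and the strand setting: not given in the sources used here. Deposited by the authors were counts of reads per gene as whole numbers and, separately, values on a log2 scale. The transformation behind the deposited log2 values is not stated, and they carry an offset that differs between genes. For the low-level genes Itga2, Lamb3, Itgae and Itga10, their log2 changes were also smaller in size than those from edgeR. Symbols, positions and merged exon lengths came from GENCODE M21 (GRCm38), which matched 53706 of 53801 genes.

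Low-count genes were removed with filterByExpr (15143 left), and the counts were scaled by TMM. The test was the quasi-likelihood test of edgeR 4.0.16 with robust dispersions in R 4.3.3, with Benjamini-Hochberg adjustment and a threshold of 0.05. The standard error of a log2 fold change was its size divided by the square root of the F statistic. Levels per kilobase are TMM-normalised CPM over merged exon length. The text names the 37 genes, except 1 that is counted but not reported here, and, from each partner list, up to 2 genes per direction with the smallest adjusted p. Ilk, Krt5, Ptprc, Spp1, Lims2 and Fermt3 are named outside that rule, after their values were seen. The members and lists were chosen with earlier results of these data known. The test was checked on simulated counts with few changed genes, balanced in direction, and the same spread for all genes. That check cannot bear on the scaling between passages. Alternatives were other scalings and filters, DESeq2 1.42.0, limma-voom and limma 3.58.1 on the deposited log2 values, a replicate block, each library left out, and another gene length.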

Additional observations from a re-analysis of the deposited data

How the results depend on the processing

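With library sizes only, 13 integrin and laminin genes were higher and 10 lower, against 20 and 9, and 3528 of all genes were higher, against 5604, because this scaling shifts all genes downward. The log2 change then turned to -0.0557 for Itga11, -0.27 for Itga4 and -0.0954 for Itga6. For Itga4, which was not called, it was also -0.0196 with upper-quartile factors, and it ran from -0.0972 (without passage 20 replicate 3) to 0.199 (without passage 20 replicate 1) when 1 library was left out, with -0.03085 without passage 3 replicate 1; the cause was not tested. Over the alternatives other than library sizes only, 17 to 20 genes were higher and 8 to 10 lower, and DESeq2 gave 17 and 8.

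Shares per length moved with the gene length, since merged exons and the longest transcript differ in length. With the longest transcript the shares at passage 3 and passage 20 were, for Lama1 39.4% and 12.9%, for Lama2 8.17% and 2.84%, for Lama3 1.18% and 0.209%, for Lama4 43.1% and 61% and for Lama5 8.1% and 23%. Likewise they were, for Itga3 12.2% and 14.7%, for Itga6 68.1% and 53.8%, for Itga7 19.8% and 31.4%, for Itgb3 4.7% and 10.6%, for Itgb6 0.0183% and 0.0341%, for Itgb8 1.59% and 9.35%, for Lamb1 35% and 46.8% and for Lamb2 64.9% and 53%.

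With the replicate number as a block, 20 were higher and 8 lower, and Itga1 did not pass (adjusted p = 0.0514). Same-numbered libraries had deviations from their passage means correlated at 0.014, -0.027 and 0.045. Replicate 3 of each passage correlated best with its own number, while replicates 1 and 2 did not. With 3 libraries per passage, these correlations cannot show whether same-numbered libraries share an origin. The labels give only a replicate number, and the fit without the block was kept. Itgal, Itgb2 and Itgb6 had too few counts to enter the test, so a change in them was not detectable at this depth.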
